A study of Mus musculus with 9 samples.

Results

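The natriuretic peptide family comprises 7 genes here, taken by name from the deposited table of gene expression in mouse heart: the peptide genes Nppa, Nppb and Nppc, the receptor genes Npr1, Npr2 and Npr3, and the protease gene Corin. All 7 were among the 29237 genes of the table. Messenger RNA was sequenced from hearts of wild-type C57BL/6 mice aged 8 to 12 weeks, in 3 groups of 3 libraries each. The labels call these groups control, DOX and TPTN, and the design text calls them a normal group, a DOX model group and a group treated with TPTN. DOX is read here as doxorubicin, an anthracycline used against cancer that can injure heart muscle. From the labels, neither the nature of TPTN nor any dose, route or day is known, and DOX may or may not have been given to the TPTN mice as well. The replicate numbers are all that marks the libraries as separate samples, so every p-value below measures the spread between these samples, which may be technical.

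Natriuretic peptides are hormones that lower blood pressure and blood volume. Nppa encodes the precursor of atrial natriuretic peptide, which the atria of the adult heart make in far larger amounts than the ventricles. Nppb encodes the precursor of brain natriuretic peptide, which ventricular muscle makes under strain, and Nppc encodes the C-type peptide, made mainly by endothelium and cartilage. Corin is a membrane protease of heart muscle cells that cleaves the Nppa precursor into the active hormone. Npr1 is the membrane guanylyl cyclase that answers to the atrial and brain peptides by making cyclic GMP, Npr2 is the related cyclase for the C-type peptide, and Npr3 has no cyclase domain and clears peptides from the circulation. Return of Nppa to the ventricle is a classical sign of a stressed or failing heart.

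The promoters of both cardiac peptide genes are shown first, because Nppa and Nppb, neighbours on chromosome 4, were the most abundant members and differed most between libraries. On GRCm38, the mouse genome build, Nppb (ENSMUSG00000029019) occupies chr4:147985788-147987205 and Nppa (ENSMUSG00000041616) chr4:148000722-148002079, both on the plus strand, with 13516 bases between the gene bodies. RefSeq's table for GRCm38.p6 gave the 250 bases before each gene's start, and 5 short motifs known from cardiac promoters were searched in them on both strands. The TATA box was searched as TATAAA, the motif of the GATA factors as GATAA, and the M-CAT element, bound by TEAD factors, as CATTCC. The element of NK factors such as Nkx2-5 was searched as TNAAGTG and a single site of T-box factors as TCACACC. In the Nppa window, chr4:148000472-148000721, plus strand, the capitals mark a T-box site at 250 bases before the start, an NK element at 241, GATA motifs at 121 and, on the minus strand, at 75, and a TATA box at 9:
Nppa: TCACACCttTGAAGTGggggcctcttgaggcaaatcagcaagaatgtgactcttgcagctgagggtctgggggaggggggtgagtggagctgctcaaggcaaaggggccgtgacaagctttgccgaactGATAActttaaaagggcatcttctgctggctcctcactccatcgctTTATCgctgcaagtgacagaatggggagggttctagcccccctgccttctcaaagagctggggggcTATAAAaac
For Nppb the stretch with 3 of its motifs is shown, chr4:147985794-147985823, plus strand, with an M-CAT element on the minus strand at 105 bases before RefSeq's start and GATA motifs at 94 and 83 in capitals:
Nppb: aGGAATGcagctGATAAatcagaGATAAcc
A TATA box followed at 31 bases before the start. GENCODE M21, the annotation used for all gene positions here, starts Nppb upstream of this stretch and so places it in the first exon. Over all 32851 RefSeq windows of this length, 22.6% held the GATA motif, 12.6% M-CAT, 12.4% the TATA box, 10.1% the NK element and 3.3% the T-box site. The Nppc window held a TATA box at 29 bases before its start, and the windows of Npr1, Npr2, Npr3 and Corin held none of the 5 motifs. A match describes the letters of these windows, and no binding was measured.

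Values are FPKM, mapped fragments relative to transcript length and to the size of the library, so levels can be set beside each other between genes. A gene is called past the threshold at an adjusted p under 0.05 from limma, with Benjamini-Hochberg adjustment over the 12500 genes with a mean of at least 0.5 FPKM, and changes are log2 differences of FPKM + 1, which understate the change of genes with low values. FPKM sums of the libraries were alike, at 4.955e+05 to 5.427e+05, of which 44.7 to 50.9% came from mitochondrially encoded genes. Depth, roughly estimated from the smallest values, was 18.8 to 24.8 M read pairs. The 3 most abundant of 7 ventricular markers were high in every library (Myl2 from 1908 to 2887 FPKM, Myl3 from 1502 to 2118, Lbh from 105 to 154). These ventricular genes were thus present in the labelled tissue. The rest of the list was lower. Irx4 was at 7.58 to 10.1 FPKM, Kcnj2 at 3.74 to 6.48, Mpped2 at 1.92 to 3.59 and Hey2 at 0.521 to 0.851.

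DOX replicate 1 stood apart from the other 8 libraries. Of 14 atrial myocyte markers, 12 were highest in it and 9 were more than 2-fold above every other library. The summed FPKM of the list was 35.5 to 38.9 in control, 32.5 to 37.6 in TPTN, 42.6 and 37.9 in DOX replicates 2 and 3, and 952 in DOX replicate 1. The defining atrial genes Sln, Myl7, Myl4, Mybphl, Bmp10, Dkk3 and Fgf12 together gave 866 FPKM there and 0.766 to 2.18 elsewhere. Myl7, the atrial myosin light chain, was at 539 FPKM there and at most 0.889 in any other library, whereas Kcnj5 and Kcnj3, channel genes that the other libraries also expressed at 11.1 to 13.3 and 7.32 to 9.32 FPKM, reached 21.5 and 17.9. Summed endocardial markers were also highest in DOX replicate 1, at 30.5 FPKM against 9.26 to 13.7 elsewhere, and all 6 of them peaked there. The most abundant of them, Cytl1, Vwf and Plvap, were at 16.2, 6.38 and 6.41 FPKM there. Elsewhere they were at most at 6.59, 5.43 and 3.66 FPKM. The sums of the fibroblast list (542 against at most 372), the conduction list (5.05 against at most 2.26), the epicardial and mesothelial list (2.67 against at most 1.31) and the adipocyte list (1.66 against at most 0.603) were highest in it too. Gsn gave 439 of the 542 FPKM of the fibroblast list, of which 4 of 6 genes were highest there. The ventricular, endothelial, myeloid and smooth muscle sums were within the range of the other libraries. The members' tests and the list counts and medians below are therefore given with and without DOX replicate 1. Leaving it out alters no log2 change between TPTN and control, only its adjusted p.

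The members covered a wide range of levels. In control hearts Nppb was highest, with a mean of 182 FPKM ± 84.6 (SD, n = 3), followed by Nppa at 97.5 ± 48.2, Corin at 24.8 ± 0.894, Npr2 at 8.41 ± 0.537, Npr1 at 4.59 ± 0.346 and Npr3 at 1.36 ± 0.279. Nppc came last, listed at 0 in 8 of the 9 libraries and at 0.0667 FPKM in control replicate 2. Among neighbours in this order, the library values of Nppb and Nppa overlapped in control and in DOX, and no other pair of neighbours overlapped in any group. Nppa led the order in DOX, with a mean of 740 ± 864 FPKM, which rested on replicate 1, and Nppb led in TPTN, where its libraries did not overlap those of Nppa. Ranked among all genes of a library, Nppa ranged from place 497 in TPTN replicate 3 to place 32 in DOX replicate 1, while Nppb stayed between places 73 and 313. Nppc (ENSMUSG00000026241, chr1:86666291-86670571, minus strand) lay below the minimum mean of 0.5 FPKM, so 6 of the 7 members were tested.

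**Figure D1:**
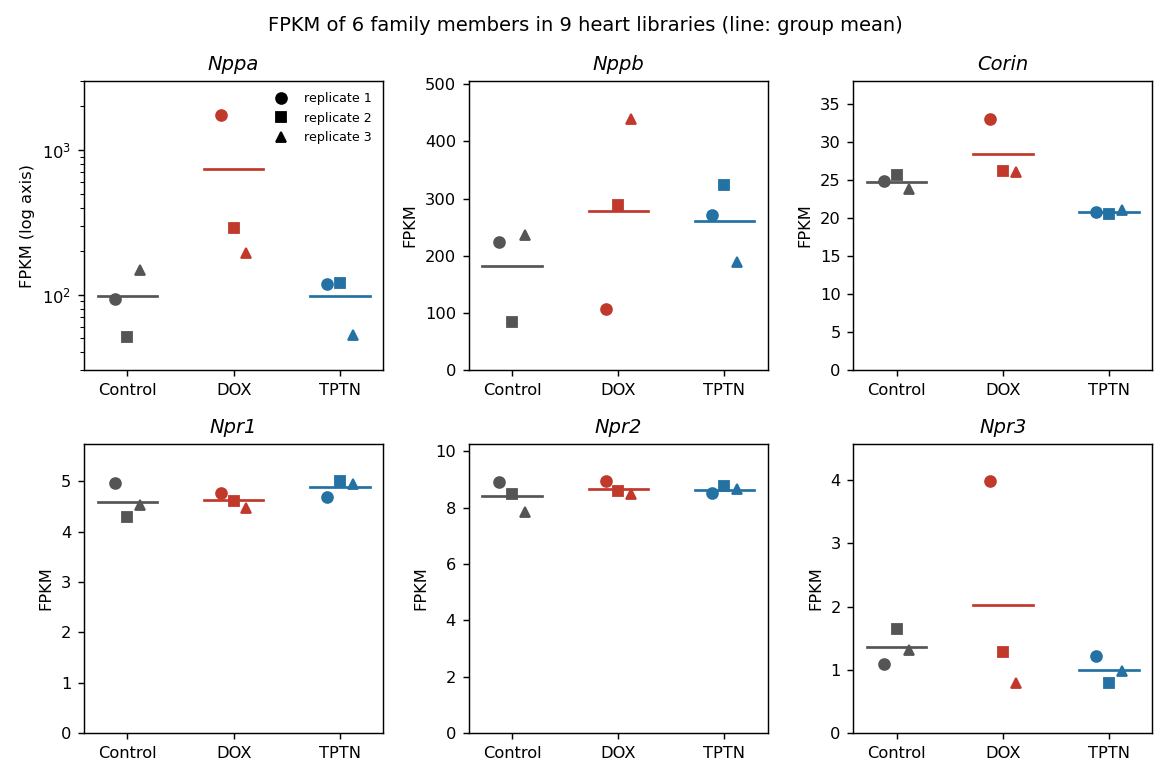
FPKM of the 6 tested members in each of the 9 libraries, by group, with marker shape giving the replicate number and lines the group mean; the axis of Nppa is logarithmic and the others start at 0. DOX replicate 1 lies far above the rest for Nppa (1736 FPKM) and Npr3 (3.98 FPKM) and is the lowest DOX library for Nppb (106 FPKM), and all TPTN libraries lie below all others for Corin.

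In DOX against control, which asks what the model group did to the family, 0 of the 6 tested members passed the threshold in limma, against 2.63% of all tested genes, and 1 of 6 had an unadjusted p under 0.05, against 18% of all tested genes. The libraries of the groups did not overlap for 2 of 6, Nppa and Corin, both higher in DOX. Of all tested genes 22.8% had no overlap, 17.7% with DOX higher. In TPTN against DOX, which sets the treated group beside the model group, 1 of 6 passed, against 3.26% of all tested genes: Corin was lower in TPTN, as were 2.46% of all tested genes past the threshold. Of the 6, 2 had an unadjusted p under 0.05, against 20.6% of all tested genes. Again Nppa and Corin were the 2 of 6 without overlap, both lower in TPTN, against 24.5% of all tested genes, 14.1% with TPTN lower. In TPTN against control 0 of 6 passed, against 0.72% of all tested genes, with 1 of 6 at an unadjusted p under 0.05 (all genes 13.1%) and 1 of 6, Corin, without overlap (all genes 21.3%; 6.03% with TPTN lower, as Corin was). The median log2 change of the 6 members was 0.20, -0.22 and 0.03 in these comparisons in turn, and that of all tested genes 0.04, -0.01 and 0.04. Leaving out DOX replicate 1 took the members' median to 0.05, -0.17 and 0.03, beside 0.02, 0.01 and 0.04 for all genes tested then, so in DOX against control the median of the members rested on that library. Each pair of comparisons shares a group of libraries, so they are not independent of each other. The members' calls without DOX replicate 1 were the same, 0, 1 and 0, and the shares of all tested genes called were 2.54, 3.89 and 1.09%.

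**Figure D2:**
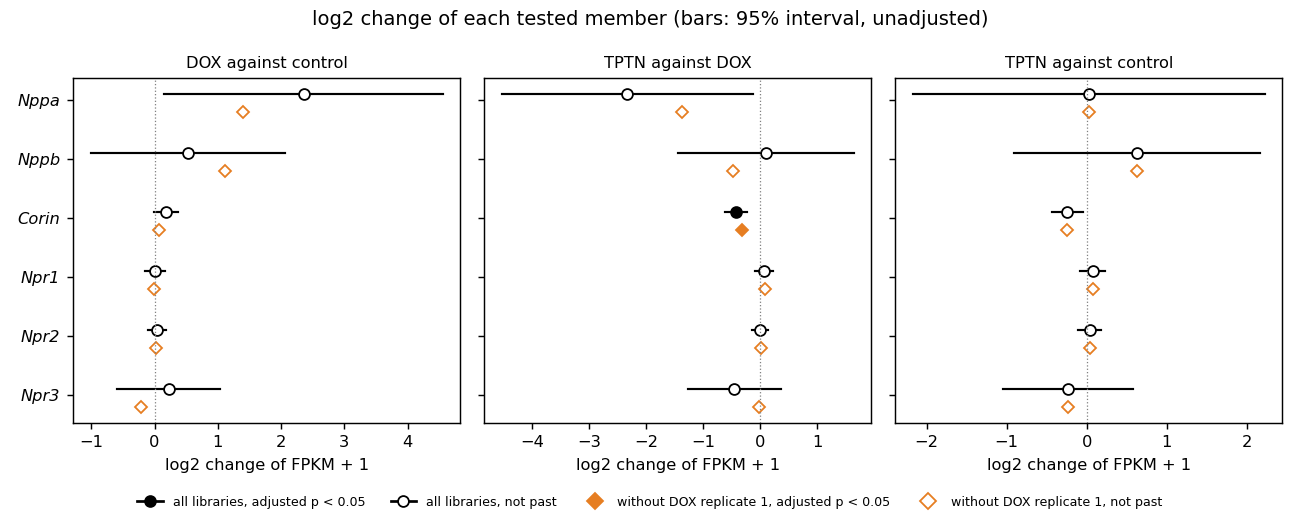
log2 change of FPKM + 1 for each tested member in the 3 comparisons, from limma on all libraries (circles, with 95% intervals not adjusted for multiple tests) and without DOX replicate 1 (diamonds, no interval drawn); filled markers passed an adjusted p under 0.05. Only Corin in TPTN against DOX is filled, at -0.43 with all libraries and -0.32 without DOX replicate 1, and the intervals of Nppa and Nppb are several times wider than those of Corin, Npr1 and Npr2.

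Nppa was measured at 94.0, 51.2 and 147 FPKM in control replicates 1 to 3, at 1736, 288 and 195 FPKM in DOX, and at 118, 120 and 52.6 FPKM in TPTN. All 3 DOX libraries were above all control and all TPTN libraries, and replicate 1 of DOX was 6.03 times the highest of the other 8. The log2 change in DOX against control was 2.36 ± 0.907 (SE), with a 95% interval of 0.16 to 4.56 and an adjusted p of 0.25 in limma, and without DOX replicate 1 it was 1.40 ± 0.572 with an adjusted p of 0.263. DOX replicates 2 and 3 had a mean of 242 FPKM, 2.48 times the control mean. In TPTN against DOX the change was -2.33 (limma adjusted p = 0.22), and without DOX replicate 1 it was -1.37 (adjusted p = 0.217), so the call was missed either way. TPTN and control had nearly the same mean, 97.2 ± 38.6 and 97.5 ± 48.2 FPKM, and a log2 change of 0.03 (limma adjusted p = 0.994) with an interval from -2.17 to 2.23.

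The high Nppa value and the atrial markers moved together in DOX replicate 1. The Nppa values of DOX replicates 2 and 3 stood beside atrial sums of 42.6 and 37.9 FPKM for the whole list, near the 32.5 to 38.9 of the 6 control and TPTN libraries. In these 2 libraries the 7 defining atrial genes named above summed to 2.18 and 1.69 FPKM, against 866 in DOX replicate 1. Their sums were 0.766 to 1.34 FPKM in control and 1.02 to 1.885 in TPTN. Both DOX sums were thus above all control libraries, and that of replicate 2 was above all TPTN libraries too. Sln was listed at 0 and at 0.0581 FPKM. Myl7 was at 0.764 and 0.737 FPKM, against at most 0.151 in control and 0.889 in TPTN. Of the atrial markers 12 were tested and 0 passed the threshold in any comparison, but some of them, such as Myl7, reached the minimum mean through DOX replicate 1 alone, so nothing is read from that count or from their medians of 1.29, -1.31 and -0.02. Without that library 7 were tested, 0 passed, and the medians were 0.03, -0.02 and -0.04. The part of atrial tissue in the Nppa values of the 3 DOX libraries was not tested, and in bulk samples fewer cells of a type and less RNA per cell cannot be told apart. An antisense gene, Gm13054 (minus strand), overlaps Nppa by 989 bases. It was at 8.44 FPKM in DOX replicate 1 and at most 0.524 in the other libraries. Whether the counting used strand is not given in the sources used here, so reads of the pair cannot be told apart.

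**Figure D3:**
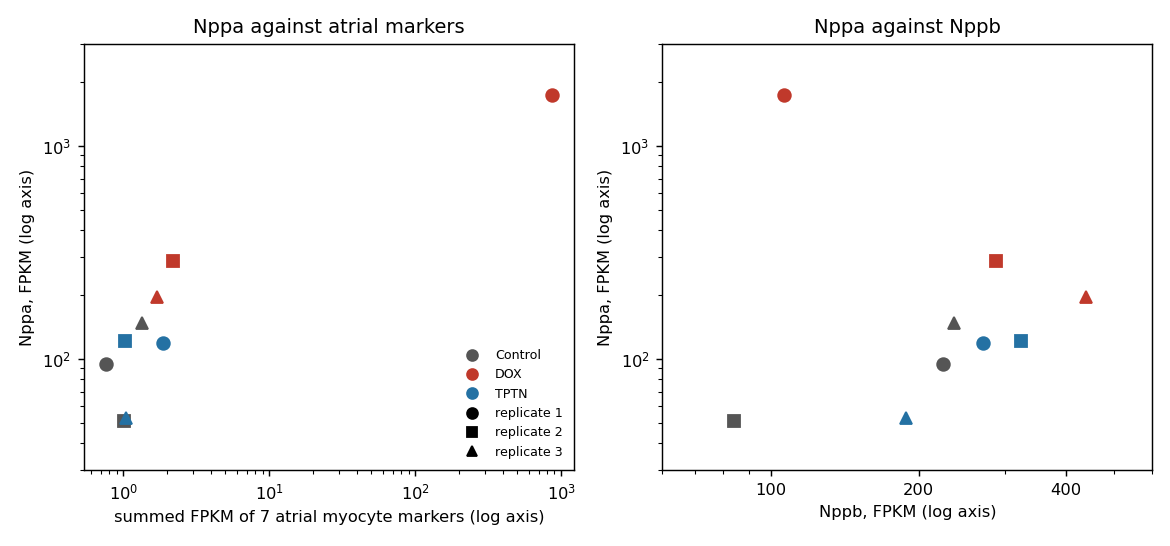
FPKM of Nppa in each library against the summed FPKM of Sln, Myl7, Myl4, Mybphl, Bmp10, Dkk3 and Fgf12 (left) and against Nppb (right), all axes logarithmic, colours for groups and shapes for replicate numbers. DOX replicate 1 stands alone at the upper right of the left panel (866 and 1736 FPKM) and at the upper left of the right panel. DOX replicates 2 and 3 lie above all control and TPTN libraries on the Nppa axis. On the marker axis they are at 2.18 and 1.69 FPKM, with control at 0.766 to 1.34 and TPTN at 1.02 to 1.885.

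Nppb was measured at 224, 84.0 and 236 FPKM in control, at 106, 288 and 440 FPKM in DOX, and at 271, 324 and 188 FPKM in TPTN. The groups overlapped in all comparisons, with the lowest DOX library, replicate 1, being the one with the highest Nppa. The log2 change in DOX against control was 0.53 ± 0.638 (SE), with a 95% interval of -1.01 to 2.07 (limma adjusted p = 0.732). Without DOX replicate 1 both remaining DOX libraries were above all control libraries, with a mean of 364 FPKM that was 2.00 times the control mean, and the change was 1.11 with an adjusted p of 0.326. It was 0.05 without control replicate 2, the lowest control library, and 0.09 without DOX replicate 3, the highest DOX library. The sign of TPTN against DOX turned with that library, from 0.10 with it (limma adjusted p = 0.953) to -0.48 without it (adjusted p = 0.624). In TPTN against control the change was 0.63 (limma adjusted p = 0.752), and 0.15 without control replicate 2.

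A ratio within a library does not depend on how that library was scaled. Nppa stood to Nppb as 0.419, 0.609 and 0.624 in control replicates 1 to 3, as 16.3, 0.999 and 0.444 in the DOX libraries, and as 0.437, 0.372 and 0.279 in TPTN. DOX replicate 1 had the only ratio above 1, and DOX replicate 3 lay among the control libraries. TPTN replicates 2 and 3 had the lowest ratios of all 9 libraries. These ratios were formed after the values had been seen and were not tested. Over libraries, Pearson's r of Nppa and Nppb on log2(FPKM + 1) was -0.08 with all 9 and 0.76 without DOX replicate 1, given as a description of libraries that share groups.

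Corin (ENSMUSG00000005220, chr5:72300025-72504473, minus strand) had groups in an order without overlap in the values as deposited. It was measured at 24.9, 25.6 and 23.9 FPKM in control, at 33.1, 26.2 and 26.0 FPKM in DOX, and at 20.8, 20.5 and 21.1 FPKM in TPTN. Every TPTN library was below every control library, and every control library was below every DOX library. Groups without overlap were common, at 21.3 to 24.5% of all tested genes per comparison. The share of genes with all 3 groups apart was not counted. The step from control to DOX was small, from 25.65 to 26.05 FPKM at its nearest, and depended on scaling. Its log2 change was 0.12 under scaling by median ratios and 0.02 under scaling without mitochondrial genes and their copies. Corin fell by 26.9% in TPTN against DOX, from a mean of 28.4 ± 4.01 to 20.8 ± 0.286 FPKM (SD, n = 3 each). The log2 change was -0.43 ± 0.0877 (SE), with a 95% interval of -0.62 to -0.23 and an adjusted p of 0.0328 in limma. Without DOX replicate 1, its highest library, it was -0.32 ± 0.0604 and still passed (adjusted p = 0.033). The call was lost in 10 of 17 alternative settings, in which the adjusted p ranged up to 0.169. Among these were leaving out control replicate 3 (limma adjusted p = 0.0531), DOX replicate 2 (0.0603) or 3 (0.0602), or TPTN replicate 1 (0.0953), 2 (0.0772) or 3 (0.0816), and the change kept its sign in all 17.

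Corin in DOX against control had a log2 change of 0.18 ± 0.0877 (SE, limma adjusted p = 0.309), and 0.07 without DOX replicate 1 (adjusted p = 0.553). In TPTN against control it was -0.24 (limma adjusted p = 0.26), and in a fit without DOX replicate 1 the same difference had an adjusted p of 0.0811. So neither of the other steps of the order passed the threshold. The ordering of Corin and that of Nppa differed: TPTN was level with control for Nppa and below it in all 3 libraries for Corin. This difference between the genes was not tested.

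The cyclase receptors held nearly constant values. Npr1 (ENSMUSG00000027931, chr3:90450591-90465866, minus strand) was at 4.96, 4.28 and 4.53 FPKM in control, at 4.78, 4.61 and 4.47 FPKM in DOX, and at 4.70, 5.00 and 4.94 FPKM in TPTN. Its groups overlapped in every comparison, and its highest library was 1.17 times its lowest. The log2 change in DOX against control was 0.01, with a 95% interval of -0.14 to 0.16 (limma adjusted p = 0.969), and the changes in TPTN against DOX and against control were 0.06 (adjusted p = 0.642) and 0.07 (adjusted p = 0.719). Npr2 (ENSMUSG00000028469, chr4:43631935-43651244, plus strand) was at 8.91, 8.48 and 7.84 FPKM in control, at 8.94, 8.60 and 8.50 FPKM in DOX, and at 8.52, 8.76 and 8.66 FPKM in TPTN. Again the groups overlapped in every comparison, with 1.14 times between the highest and lowest library. The log2 change of Npr2 in DOX against control was 0.04, with a 95% interval of -0.10 to 0.18 (limma adjusted p = 0.793), and those in the TPTN comparisons were -0.0043 (adjusted p = 0.979) and 0.04 (adjusted p = 0.866). The changes of Npr1 and Npr2 in DOX against control were -0.01 (limma adjusted p = 0.955) and 0.02 (adjusted p = 0.895) without DOX replicate 1, and those in TPTN against DOX 0.08 (adjusted p = 0.517) and 0.01 (adjusted p = 0.917). The signs of these small changes turned under other scalings for Npr1 in DOX against control and for Npr2 in all 3 comparisons. Npr2 was 1.73 to 1.98 times Npr1 in every library. Values of Npr1 and Npr2 in DOX replicate 1 lay within or just above the range of the other libraries, unlike those of Nppa and Npr3.

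Npr3 (ENSMUSG00000022206, chr15:11839896-11907287, minus strand), the clearance receptor, was at 1.09, 1.65 and 1.32 FPKM in control, at 3.98, 1.28 and 0.797 FPKM in DOX, and at 1.22, 0.786 and 0.984 FPKM in TPTN. DOX replicate 1 was 2.41 times the highest of the other 8, and the other DOX libraries were level with or below control. The log2 change in DOX against control turned sign with that library, from 0.22 with it (limma adjusted p = 0.798) to -0.21 without it (adjusted p = 0.447). In TPTN against DOX it was -0.46 (limma adjusted p = 0.506) and -0.03 without DOX replicate 1 (adjusted p = 0.931). In TPTN against control it was -0.24 (limma adjusted p = 0.842). The peak of Npr3 thus stood in the library that also held the highest endocardial, atrial and fibroblast sums, and the part of these cells in it was not tested.

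The ratio of Npr1 to Npr3, of the signalling to the clearing receptor for the same peptides, was 4.54, 2.60 and 3.43 in the control libraries. DOX replicates 1 to 3 gave 1.2, 3.60 and 5.61, and those of TPTN gave 3.84, 6.36 and 5.02. The groups overlapped in all comparisons. On the log2 scale, TPTN exceeded control by 0.53 (exact permutation test, two-sided p = 0.2) and DOX by 0.78 (exact p = 0.4), and DOX was below control by a difference of -0.25 (exact p = 0.9). Adjusted over the 3 comparisons these p-values were 0.6, 0.6 and 0.9. An exact test of 3 against 3 cannot go below 0.1, so none could have passed. The difference of DOX and control turned to 0.39 without DOX replicate 1.

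The authors' deposited table gives each gene a p-value and a q-value without naming the groups compared. In it Nppa had a q-value of 2.08e-06 and Corin one of 0.0161. Npr3 was marked as significant in the authors' deposited table on a p-value of 0.0331, with a q-value of 0.192. The q-values of Nppb, Npr1, Npr2 and Nppc in the authors' deposited table were 0.532, 0.8, 0.867 and 1.

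The genes around these members in the pathway were next examined. A list of 25 genes covered processing and breakdown of the peptides, cyclic GMP synthesis, phosphodiesterases and targets of the cyclic GMP kinase. Of these, 19 were tested and 0 passed the threshold in limma in DOX against control, TPTN against DOX or TPTN against control. Of all tested genes 2.63, 3.26 and 0.72% passed in these comparisons in turn. An unadjusted p under 0.05 was found for 3, 4 and 2 of the 19. The shares of all tested genes were 18, 20.6 and 13.1%, so these counts were near what all genes gave. The median log2 changes of the 19 were 0.07, 0.01 and 0.04. The counts past the threshold were also 0 in each comparison without DOX replicate 1, with medians of -0.02, 0.01 and 0.04. Pln, encoding phospholamban, the brake on the calcium pump that the kinase can phosphorylate, was the most abundant at 1128 to 1283 FPKM. Ppp1r12b, a targeting subunit of myosin phosphatase, followed at 10.02 to 15.6 FPKM, and its log2 change in TPTN against DOX was 0.29 (limma adjusted p = 0.113; 0.38 and 0.0512 without DOX replicate 1). Furin and Mme are named for their known roles and lie outside the rule. Furin, another protease that cuts natriuretic peptide precursors, was at 6.47 to 8.03 FPKM. Mme, encoding neprilysin, which degrades the peptides, was at 0.475 to 0.726 FPKM.

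A few other pathway genes are named because their unadjusted p was under 0.05, and so were chosen after their values were seen. Rgs2, a brake on Gq signalling that the cyclic GMP kinase activates, was at 4.41, 3.00 and 4.02 FPKM in control, at 7.54, 5.33 and 4.11 FPKM in DOX, and at 2.92, 3.09 and 3.43 FPKM in TPTN. All DOX libraries were above all TPTN libraries, and DOX replicate 1 was again the highest. The log2 change of Rgs2 was 0.45 in DOX against control (limma adjusted p = 0.224) and -0.65 in TPTN against DOX (adjusted p = 0.0816). With DOX replicate 1 left out, these were 0.25 (limma adjusted p = 0.355) and -0.46 (adjusted p = 0.0926). The phosphodiesterase gene Pde1c had log2 changes of 0.32 (limma adjusted p = 0.096) and -0.30 (adjusted p = 0.0996) in the same comparisons, and Pde3a one of -0.22 in TPTN against DOX (adjusted p = 0.185). With that library left out, Pde1c was at 0.28 and -0.26 and Pde3a at -0.16. Vasp, a cytoskeletal substrate of the kinase, had log2 changes of 0.31 in DOX against control (limma adjusted p = 0.124) and 0.33 in TPTN against control (adjusted p = 0.17), and the first was 0.35 without DOX replicate 1. The convertase gene Pcsk6, whose product activates corin, had one of 0.30 in TPTN against control (limma adjusted p = 0.181).

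**Figure D4:**
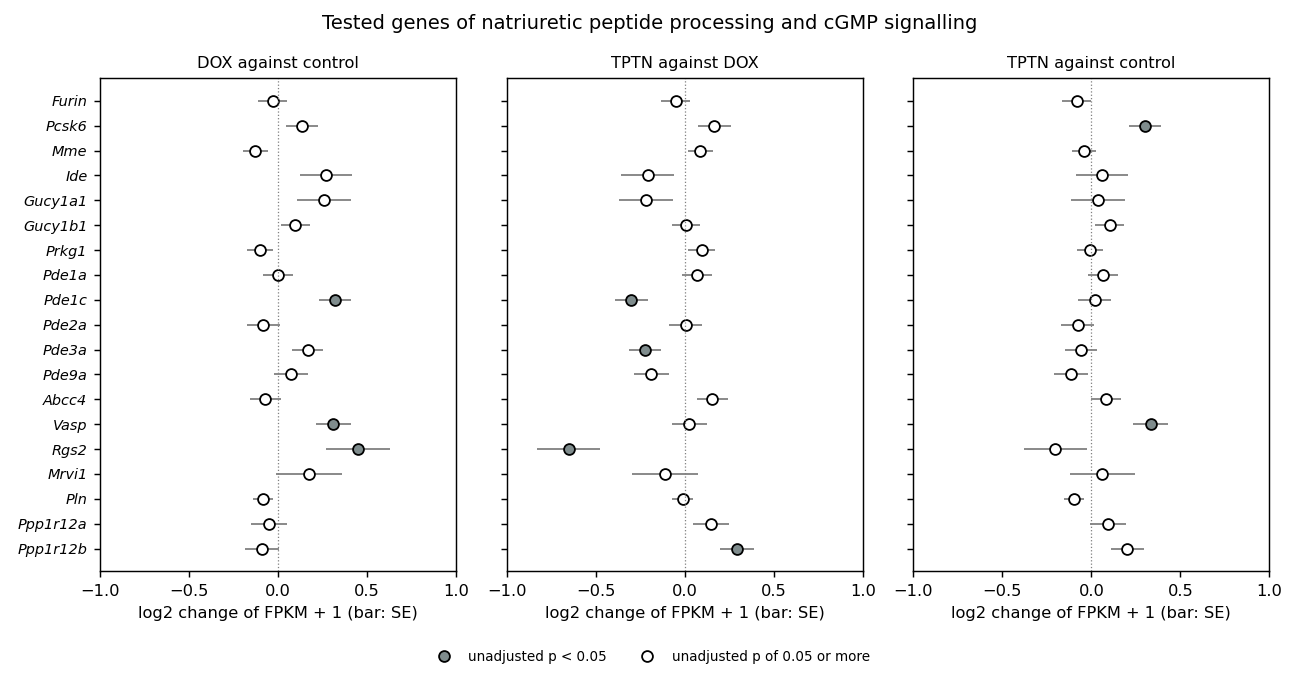
log2 change of FPKM + 1 with its SE for the 19 tested pathway genes in the 3 comparisons, from limma on all 9 libraries; filled markers had an unadjusted p under 0.05. None passed an adjusted p under 0.05, and the largest change of a filled marker is that of Rgs2 in TPTN against DOX, at -0.65.

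Of 14 transcription factors that act on the Nppa and Nppb promoters, all were tested, and 0, 1 and 1 passed the threshold in limma in DOX against control, TPTN against DOX and TPTN against control. Of all tested genes 2.63, 3.26 and 0.72% passed. At an unadjusted p under 0.05 the counts were 5, 3 and 3 of 14, beside 18, 20.6 and 13.1% of all tested genes. The median log2 changes of the 14 were 0.14, -0.0037 and 0.08. Leaving out DOX replicate 1 gave 1 lower, 1 higher and 2 higher genes past the threshold, with medians of 0.05, 0.02 and 0.08. Of all genes tested then, 2.54, 3.89 and 1.09% passed. Gata4, a cardiac factor that binds GATA motifs like those printed above, was at 17.0, 16.9 and 15.6 FPKM in control, at 22.2, 18.8 and 20.96 FPKM in DOX, and at 22.4, 23.6 and 21.8 FPKM in TPTN. Control was below both other groups without overlap. Gata4 rose in TPTN against control by a log2 change of 0.44 ± 0.0737 (SE, limma adjusted p = 0.0275; 10 of 17 alternatives kept the call), while in DOX against control it had a change of 0.31 with an adjusted p of 0.0548 (0.26 and 0.104 without DOX replicate 1). The Gata4 call was lost without control replicate 2 (limma adjusted p = 0.0711) or 3 (0.0993) and without any TPTN library (0.0706 to 0.106).

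Myocd, encoding myocardin, a coactivator of serum response factor in heart and smooth muscle, was at 3.21, 3.05 and 3.32 FPKM in control, at 3.74, 3.03 and 2.75 FPKM in DOX, and at 4.52, 4.56 and 6.09 FPKM in TPTN. All TPTN libraries were above all others. Myocd rose in TPTN against DOX by a log2 change of 0.54 ± 0.113 (SE, limma adjusted p = 0.0352), a call that 8 of 17 alternatives kept. It was lost without control replicate 3 (limma adjusted p = 0.0557), DOX replicate 2 (0.104) or 3 (0.102), or TPTN replicate 1 (0.0761), 2 (0.0622) or 3 (0.0917). Without DOX replicate 1 Myocd was past the threshold in TPTN against DOX (0.63, limma adjusted p = 0.0304) and in TPTN against control (0.52, adjusted p = 0.0464).

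Tbx5 and Tead1 are named after their values were seen. Tbx5, a T-box factor with high atrial expression, peaked with the atrial markers and Nppa in DOX replicate 1, at 7.89 FPKM. It was at 3.38 and 3.17 FPKM in DOX replicates 2 and 3, above control (2.33 to 2.74) and TPTN (2.48 to 2.91). The log2 change of Tbx5 in DOX against control was 0.61 (limma adjusted p = 0.265; 0.26 and 0.136 without DOX replicate 1). In TPTN against DOX it was -0.59 (limma adjusted p = 0.248; -0.24 and 0.129 without DOX replicate 1). Tead1, which binds the M-CAT element, was at 9.05, 8.57 and 9.28 FPKM in control, at 8.09, 6.59 and 5.36 FPKM in DOX, and at 7.66, 7.73 and 8.42 FPKM in TPTN. All control libraries were above all DOX libraries. The log2 change of Tead1 in DOX against control was -0.39 with all libraries (limma adjusted p = 0.096) and -0.52 without DOX replicate 1, where it passed (adjusted p = 0.0304).

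A list of 12 genes that mark stressed ventricular muscle was set beside Nppa and Nppb, and 11 of them were tested. In limma 1 was higher in DOX against control, 1 was lower in TPTN against DOX and 0 passed in TPTN against control. Of all tested genes 2.63, 3.26 and 0.72% passed. An unadjusted p under 0.05 was found for 2, 4 and 1 of the 11, beside 18, 20.6 and 13.1% of all tested genes. The medians of the 11 were 0.11, -0.08 and 0.01. Leaving out DOX replicate 1 gave 0, 1 lower and 0, with medians of 0.10, -0.09 and 0.01. Both calls were Ccn2, which encodes a matricellular growth factor. Genes with only an unadjusted p under 0.05 are named after their values were seen. In DOX against control this was Xirp2, which went the other way (-0.34, limma adjusted p = 0.0551). In TPTN against DOX, Xirp2 (0.26, limma adjusted p = 0.103) and Postn (0.40, adjusted p = 0.0798) were higher, and Ankrd1 was lower. Ccn2 was at 14.1, 11.9 and 15.6 FPKM in control, at 21.1, 21.3 and 20.4 FPKM in DOX, and at 13.1, 10.1 and 9.90 FPKM in TPTN. All DOX libraries were above all others, and DOX replicate 1 did not stand apart. Ccn2 rose in DOX by a log2 change of 0.57 ± 0.113 (SE, limma adjusted p = 0.0327) and fell in TPTN against DOX by 0.87 on the log2 scale (adjusted p = 0.0085). These were 0.56 (limma adjusted p = 0.0645) and -0.87 (adjusted p = 0.0271) without DOX replicate 1. The fall kept its call in 16 of 17 alternatives, and the rise in 8 of 17: leaving out any control library (limma adjusted p 0.0573 to 0.105) or any DOX library (0.0645 to 0.0995) ended the call of the rise.

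The most abundant stress genes, named for their levels after these were seen, differed in their order. Ankrd1, a stretch-responsive nuclear protein gene, was at 173 to 237 FPKM in control, at 183 to 260 in DOX and at 117 to 196 in TPTN, with a log2 change of -0.56 in TPTN against DOX (limma adjusted p = 0.185; -0.70 and 0.111 without DOX replicate 1). Acta1, the skeletal actin gene that returns in overloaded ventricle, was lowest in DOX replicate 1, at 66.6 FPKM against 98.1 to 257 elsewhere. Its log2 change in DOX against control was -0.85 (limma adjusted p = 0.339; -0.53 and 0.497 without DOX replicate 1). Myh7, encoding the slow myosin heavy chain, was at 61.7 to 77.1 FPKM in control, at 70.4 to 81.3 in DOX, where replicate 1 was the highest of all libraries, and at 65.6 to 72.0 in TPTN. None of these 3 genes passed the threshold in any comparison.

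The 7 genes beside Nppb and Nppa on chromosome 4 were also tested, and 0 passed the threshold in any comparison in limma. Of all tested genes 2.63, 3.26 and 0.72% passed. An unadjusted p under 0.05 was found for 0, 2 and 1 of the 7, beside 18, 20.6 and 13.1% of all tested genes. The median log2 changes of the 7 were 0.01, 0.02 and 0.03. They were -0.01, 0.02 and 0.03 without DOX replicate 1, again with 0 past the threshold. Mfn2, encoding a mitochondrial fusion protein, was at 110 to 126 FPKM and Plod1, encoding a collagen lysyl hydroxylase, at 7.68 to 13.1. The summed level of the 7 neighbours in DOX replicate 1, 151 FPKM, lay within the 144 to 161 FPKM of the other libraries, where Nppa was 6.03 times its next highest value. Most of this sum was Mfn2, at 121 FPKM there. Of the 7 neighbours 0 were highest in DOX replicate 1, and Plod1 was lowest in it, at 7.68 FPKM against 8.10 to 13.1 elsewhere.

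Calls in the marker lists of cell types stand beside 2.63, 3.26 and 0.72% of all tested genes. These shares are for DOX against control, TPTN against DOX and TPTN against control. Without DOX replicate 1 they were 2.54, 3.89 and 1.09% of the genes tested then. The ventricular and endothelial lists had 7 tested genes each and the myeloid list 6. The ventricular list had 1 call of 7 tested in DOX against control, Myl2 (log2 change 0.38, limma adjusted p = 0.0339), and 1 in TPTN against control, Lbh (0.47, adjusted p = 0.0093). The endothelial list had Kdr, higher in TPTN than in DOX (0.48, limma adjusted p = 0.0303; 0.0548 without DOX replicate 1) and than in control (0.66, adjusted p = 0.016). The myeloid list had S100a9, lower in TPTN than in control (-2.01, limma adjusted p = 0.0264). Leaving out 1 library ended each of these calls in limma: for Myl2 replicate 2 or 3 of control, DOX or TPTN (adjusted p 0.0509 to 0.127), for Lbh TPTN replicate 3 (0.0533), for Kdr against DOX any DOX or TPTN library (0.0547 to 0.0816), for Kdr against control, control replicate 2 or TPTN replicate 2 or 3 (0.0541 to 0.0683), and for S100a9 control replicate 1, DOX replicate 3 or any TPTN library (0.0575 to 0.111). The fibroblast list and the smooth muscle and pericyte list, with 6 genes tested in each, had 0 calls in limma. The endocardial, conduction, and epicardial and mesothelial lists also had 0. Of these only 3 of 6, 1 of 5 and 1 of 6 genes were tested, so the 0 does not cover the whole lists. Up to 3 genes of a list had an unadjusted p under 0.05 in any 1 comparison (all tested genes 13.1 to 20.6%). The atrial count is not read, for the reason given above. No adipocyte marker reached the minimum mean to be tested. Without DOX replicate 1, and so named after their values were seen, Myl3 also passed in DOX against control (0.38, limma adjusted p = 0.0485), Cytl1 (-0.69, adjusted p = 0.0311) and S100a9 (-1.32, adjusted p = 0.0471) in TPTN against DOX, and Col1a1 in both TPTN comparisons (0.54, adjusted p = 0.0428, against DOX and 0.56, adjusted p = 0.0443, against control).

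Finally, the genes whose pattern over the 9 libraries was most like that of each tested member were sought by Pearson's r on log2(FPKM + 1), among 4111 genes with a mean of at least 5 FPKM. The libraries share groups and the deviating DOX library, so these values are descriptions. For Nppa they were Os9 (r = 0.954, and 0.823 without DOX replicate 1), Prxl2c (0.94 and 0.758) and Gpx3 (0.937 and 0.78). Gpx3, encoding a secreted glutathione peroxidase, was at 236 FPKM in DOX replicate 1 and at 50.5 to 78.6 FPKM elsewhere. For Npr3 they included the channel gene Kcnj3 (0.95 and 0.641) and the adenylyl cyclase gene Adcy6 (0.943 and 0.64), which both peaked in DOX replicate 1.

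For Nppb the most alike genes were Meox2 (r = 0.895, and 0.856 without DOX replicate 1), Timm22 (0.891 and 0.852) and Gng11 (0.88 and 0.87). For Corin they were the cell cycle inhibitor gene Cdkn1b (0.962 and 0.917), the metalloproteinase inhibitor gene Timp3 (0.957 and 0.898) and Adamtsl4 (0.936 and 0.856). Timp3 was at 16.2 to 17.0 FPKM in control and at 22.6, 16.5 and 15.1 FPKM in DOX. In TPTN it was at 12.7 to 13.5 FPKM. That TPTN was its lowest group goes with its choice by likeness to Corin and is no separate result. For Npr1 they were Tmem184b (0.973 and 0.974), Asph (0.952 and 0.951) and Mcam (0.944 and 0.949). For Npr2 they were Rps27a (0.895 and 0.896), Rbmx (0.885 and 0.861) and Chtf8 (0.867 and 0.85), and Rps27a belongs to a ribosomal gene family with many near-identical copies, so its own values are uncertain.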

How the data were processed

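Per the labels' protocols, polyadenylated RNA from 9 heart samples was made into dUTP-marked libraries and sequenced as paired reads. The tools cutadapt 1.9, DESeq2, edgeR, HISAT2 2.0.4 and StringTie 1.3.4d and the build GRCm38 are named in the submitters' processing notes, without their roles. The authors deposited FPKM values per gene and library, and a p-value and q-value per gene whose groups the file headers do not name. Since FPKM is relative to the whole library, shifts in abundant transcripts move all other values.

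The members and gene lists were chosen with earlier results of these data known. Groups came from the treatment labels. limma 3.58.1 (R 4.3.3) was fitted once to log2(FPKM + 1) of all 9 libraries, with a mean per group, trend and robust empirical Bayes, in 12500 genes with a mean of at least 0.5 FPKM, adjusted by Benjamini-Hochberg over all of them, threshold 0.05, two-sided, and tested on simulated data. Of the values near the smallest, 15.1 to 18.1% came out as whole reads within a tolerance of 0.05, so no count test was run and depth is a rough estimate. Ratios were compared with an exact permutation test (scipy 1.17.1). Positions are from GENCODE M21, in which 29154 of 29237 genes were found by identifier, and sequences from RefSeq. Same-numbered libraries did not deviate together, and 0 of 36 pairs of libraries were identical.

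Named are the members, genes past the threshold in the pathway, promoter factor, stress and neighbour lists (otherwise their 2 most abundant), up to 3 abundant markers per cell type, and the 3 genes most like each member. Other genes, among them Furin, Mme, Ankrd1, Acta1, Myh7 and further markers, were named after their values were seen. A gene that this rule names is left out. Alternatives were only the groups compared, no robust estimation, a replicate block, a pseudocount of 0.1, no filter or a minimum of 1 FPKM, scaling by median ratios or without mitochondrial genes and their 7 nuclear copies, leaving out each library, and for the ratio FPKM + 0.1. The same alternatives for list genes past the threshold were added after seeing the data. Scripts ran in Python 3.11.15 (numpy 2.4.6, pandas 2.3.3, matplotlib 3.10.9).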

Additional observations from a re-analysis of the deposited data

How the results depend on the processing

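Corin in TPTN against DOX kept its direction in 17 of 17 alternatives and its call in 7. The members past the threshold there went from 1 to 0 in a fit of only the groups compared (Corin's limma adjusted p = 0.0544), with a replicate block (0.0575), with no filter (0.169) and under scaling that left out mitochondrial genes and their copies (log2 change -0.30, adjusted p = 0.0898), and were 0 to 1 when a library was left out. That last scaling moved the median log2 change of all genes in DOX against control from 0.04 to -0.07. Under it Corin was at 0.02, Npr1 at -0.13 and Npr2 at -0.11. Under scaling by median ratios Npr1 and Npr2 were at -0.044 and -0.016 there. Npr2 also turned in TPTN against DOX, to 0.0064 with median ratios and 0.12 without mitochondrial genes, and in TPTN against control to -0.010 with median ratios, where Nppa turned to -0.025 and -0.0039.

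Over all genes, the calls in DOX against control went from 329 (279 higher, 50 lower) to 175 with only the groups compared, 170 with the replicate block, 2 with no filter and 173 with median ratios (110 higher, 63 lower). Without mitochondrial genes 61 were higher and 208 lower. In TPTN against DOX they went from 407 (99 higher, 308 lower) to 159 with the block, 2 with no filter and 671 without mitochondrial genes (542 higher, 129 lower), and with median ratios 149 were higher and 280 lower. In TPTN against control 90 became 6 with no filter. The cause of these changes was not tested. Leaving out a library gave 2 to 316, 45 to 484 and 21 to 146 calls.

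Left out in turn, the libraries gave log2 changes in DOX against control of 0.05 to 1.11 for Nppb, -0.031 to 0.056 for Npr1, -0.0028 to 0.079 for Npr2 and -0.21 to 0.52 for Npr3, in TPTN against DOX of -0.48 to 0.54 for Nppb and -0.018 to 0.015 for Npr2, and in TPTN against control of -0.37 to 0.42 for Nppa, 0.15 to 0.88 for Nppb and -0.0072 to 0.075 for Npr2. The log2 ratio of Npr1 to Npr3 in DOX against control ranged from -0.72 to 0.39. Same-numbered libraries correlated at -0.261 to 0.0233 in their deviations, and 0 of 9 libraries correlated best with a library of their own number. These correlations showed no pairing by number, but they cannot show whether samples were handled together by number. With no read counts, the depth behind single values is not known.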
